A study of Mus musculus with 2 samples.

Results

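Liver RNA was compared for the carboxylesterase (Ces), alcohol dehydrogenase (Adh), aldehyde dehydrogenase (Aldh), flavin-containing monooxygenase (Fmo) and aldehyde oxidase (Aox) genes of the mouse. The members were taken by name alone. Any gene whose symbol was Ces, Adh, Aldh, Fmo or Aox followed by a digit was included, and the Aldh1a genes were left out. This gave 53 of the 21936 genes measured, with 19 Ces, 6 Adh, 17 Aldh, 7 Fmo and 4 Aox genes. The knockout library came from hnRNPK flox/flox Alb-Cre mice and the control library from hnRNPK flox/flox mice, so both genotypes carry the floxed hnRNPK alleles and the control has no Cre. Alb-Cre places Cre recombinase under the albumin promoter, a promoter used by hepatocytes. Which cells of the liver lost hnRNPK is not stated in the labels used here. Each genotype has 1 library. The labels used here give no sex, age or number of mice, and the series title calls the knockout by another name, hnRNPK-MKO, that it does not explain.

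These enzymes carry out the oxidation and hydrolysis steps by which the liver handles drugs, dietary compounds and its own lipids. Carboxylesterases sit mostly in the endoplasmic reticulum and split ester and amide bonds of drugs and of stored lipid. Alcohol dehydrogenases turn alcohols into aldehydes, and aldehyde dehydrogenases turn aldehydes into acids, in steps that serve ethanol, retinol, folate and amino acid metabolism. Flavin-containing monooxygenases add oxygen to nitrogen and sulfur atoms, and aldehyde oxidases are cytosolic molybdenum enzymes that oxidise aldehydes and aromatic heterocycles.

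The knockout library held 12176239 counted reads and the control library 12428975. Hnrnpk itself had 1411 reads in the knockout and 2559 in the control, 0.567 times the control level (95% interval 0.531 to 0.605). The 6 hepatocyte markers examined were abundant in both libraries and had a median log2 ratio of -0.01. The largest median log2 ratio among the marker lists was 2.79, for ductular markers. Their 8 genes together reached 1634 reads in the knockout and 342 in the control, with 5 of the 6 evaluated genes at least 2-fold higher. Spp1 alone gave 1078 of these reads in the knockout and 204 in the control. Stellate and fibroblast markers had 4030 and 3171 reads (knockout, control), sinusoidal endothelial markers 3531 and 4365, and Kupffer and macrophage markers 2021 and 2652. Of 7 stellate and fibroblast markers 2 were at least 2-fold higher, Col1a1 (152 and 48 reads) and Col3a1 (505 and 189). Of 6 Kupffer and macrophage markers 1 was at least 2-fold lower, Timd4 (32 and 74). Over all evaluated genes 2.53% were at least 2-fold higher and 1.13% at least 2-fold lower. In whole liver, fewer cells of a type and less RNA per cell cannot be told apart. Reads of 4 Y-linked genes were present in both libraries (1698 in the knockout, 2205 in the control). A single library per genotype allows no test, so no p-value is given. Every ratio below is knockout over control. Values in brackets after a ratio are its exact 95% interval for counting error only, which leaves out differences between mice and between library preparations.

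Levels are given as FPKM, which divides a gene's reads by its length and the library's size. Evaluation needed FPKM 1 and 20 reads in whichever library was higher, and 36 of the 53 members met this. Of the other 17, 6 had 0 reads in both libraries and 11 had between 1 and 18 reads in the higher one. The evaluated members were abundant genes for the most part. In 30 of them the higher library reached FPKM 10, and 12 were at FPKM 100 or more in both libraries. Ces1c, Ces3a and Adh1 ranked among the 100 highest genes of the whole table by mean FPKM. Together the 53 genes took 1.68% of knockout reads and 1.75% of control reads.

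No evaluated member was 2-fold higher and none was 2-fold lower in the knockout. Over all 9563 evaluated genes, 2.53% were at least 2-fold higher and 1.13% at least 2-fold lower. With a 1.5-fold limit, 1 of the 36 members was higher (2.78%), against 6.16% of all evaluated genes, and 6 were lower (16.7%), against 5.37%. The higher gene was Aldh1b1, and the lower genes were Ces1e, Ces2b, Adh7, Fmo1, Fmo2 and Aox3. Longer genes tended to have lower ratios, and with this trend subtracted Fmo1 (log2 ratio -0.57) and Aox3 (-0.48) no longer reached 1.5-fold. Then 1 member was higher, against 6.21% of all evaluated genes, and 4 were lower, against 4.64%. The median log2 ratio of the evaluated members was -0.12, beside -0.03 for all evaluated genes. Of the 36, 15 were above 0 on the log2 scale (41.7%), near the 46.0% of all evaluated genes. The counting interval lay above a ratio of 1 for 9 members (25%), below it for 17 (47.2%) and on both sides for 10 (27.8%). Over all evaluated genes these shares were 20.8%, 25.98% and 53.2%, and intervals narrow as read counts grow.

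**Figure D1:**
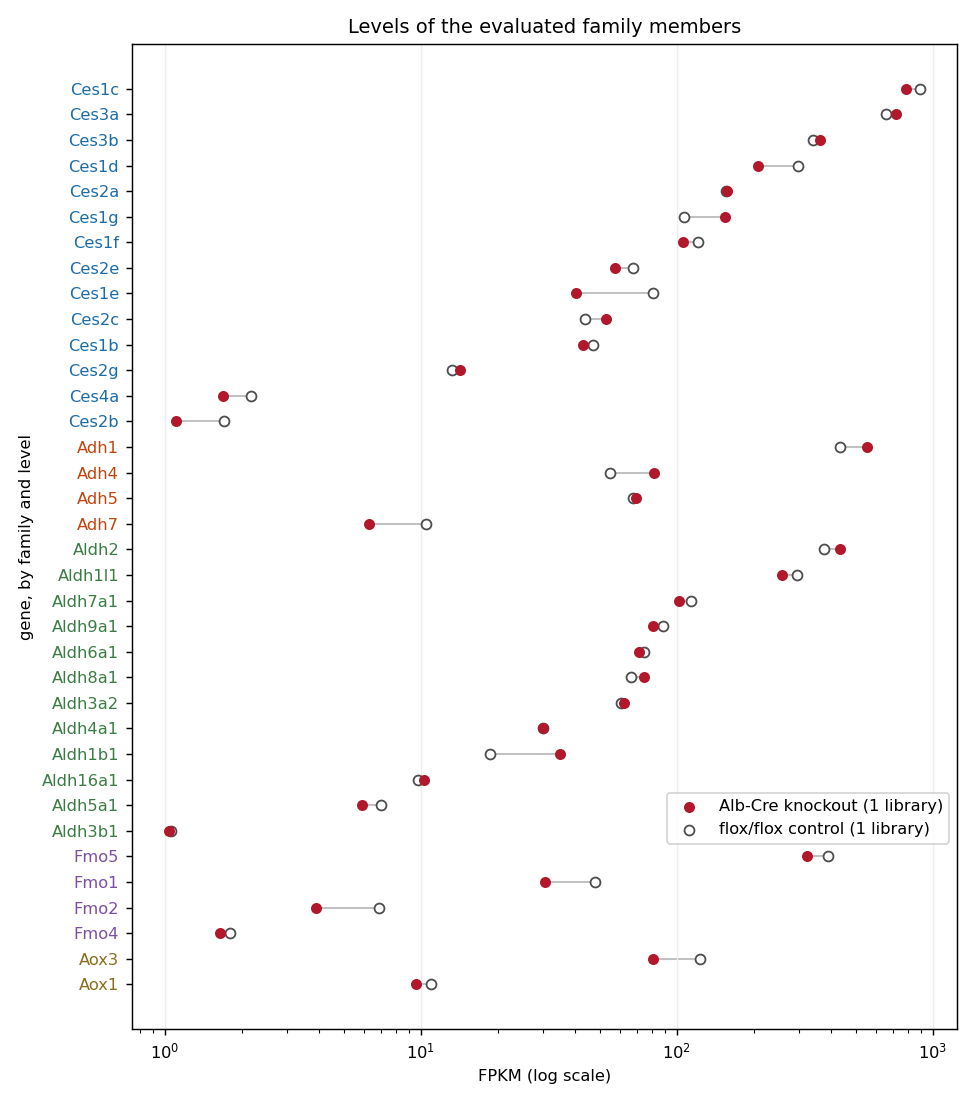
FPKM (horizontal axis, log scale) of the 36 evaluated members in the knockout library (filled red points) and the control library (open points), grouped by family and ordered by mean level, with a grey line joining the 2 values of a gene. Most pairs nearly coincide, while Ces1e (40.2 and 80.7 FPKM, knockout and control) and Aldh1b1 (35.1 and 18.6 FPKM) are the widest pairs among the genes above FPKM 10.

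**Figure D2:**
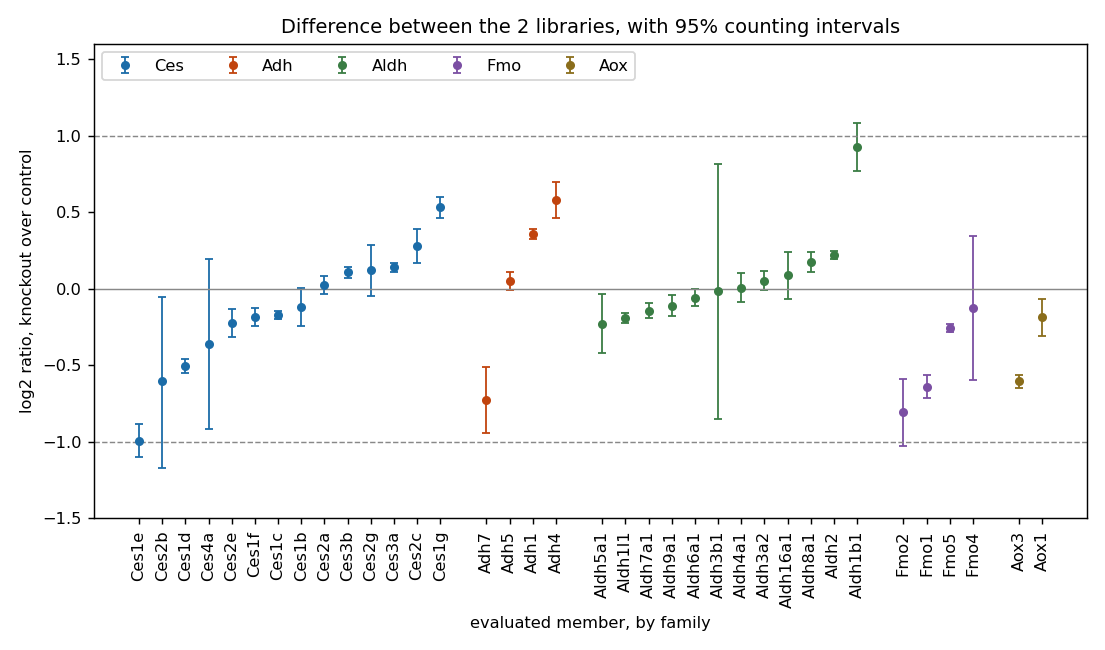
Log2 ratio of knockout over control (vertical axis) for each evaluated member, ordered within its family. Points are ratios of scaled counts, bars are exact 95% counting intervals, and dashed lines mark a 2-fold difference. No point lies beyond a dashed line. All 4 Fmo and both Aox points lie below 0, as do 53.97% of all evaluated genes.

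The carboxylesterases were close to unchanged in sum and uneven gene by gene. The 19 Ces genes had 81809 reads in the knockout and 86914 in the control, a ratio of 0.968 (0.959 to 0.977). The summed FPKM was 2698 in the knockout and 2821 in the control. Of 14 evaluated Ces genes, 8 were below 0 on the log2 scale and 6 above it. Their median was -0.15 and their range -0.99 to 0.53. All 19 lie on chromosome 8 (mm10), the Ces1 genes and Ces5a as 1 run on the minus strand and the Ces2, Ces3 and Ces4 genes as another run on the plus strand 11198172 bases away.

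The Ces1 run held both the lowest and the highest Ces ratio. Ces1e (ENSMUSG00000061959, chromosome 8, 93201218 to 93229619) encodes the esterase once named egasyn, which holds beta-glucuronidase in the endoplasmic reticulum. It had 1072 reads and FPKM 40.2 in the knockout, against 2195 reads and FPKM 80.7 in the control. The ratio was 0.502 (0.467 to 0.541), a log2 ratio of -0.99 at the edge of the 2-fold limit. Scaling by library totals alone put it past that limit, as did the median-of-ratios scaling and the subtraction of the trend with gene length. Ces1d (ENSMUSG00000056973, 93166068 to 93197838), a triacylglycerol hydrolase that takes part in the assembly of very low density lipoprotein, lies 3379 bases from its neighbour Ces1e. It had 5973 reads in the knockout and 8722 in the control, FPKM 207 and 296, a ratio of 0.704 (0.681 to 0.728).

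Ces1g (ENSMUSG00000057074, 93302369 to 93337308), another lipid-handling esterase of hepatocytes, went the other way. It had 4465 reads and FPKM 154 in the knockout, against 3177 reads and FPKM 107 in the control, a ratio of 1.45 (1.38 to 1.51). Ces1f lies between Ces1e and Ces1g and differed less, with 4223 reads in the knockout and 4936 in the control (ratio 0.880, 0.844 to 0.917). Copies within 1 run differed in direction between these 2 libraries. Ces1e and Ces1g were picked as the lowest and highest Ces ratio, so the gap between their counting intervals is no further support.

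Ces1c, which encodes the esterase that mouse liver secretes into plasma, was the most abundant member of all 53. Its FPKM was 785 in the knockout and 890 in the control, from 22203 and 25690 reads, a ratio of 0.889 (0.873 to 0.905). Its close copy Ces1b had 1026 reads in the knockout and 1147 in the control (ratio 0.920, 0.845 to 1.002). Ces1c made up 58.8% of the Ces1 FPKM in the knockout and 57.7% in the control. The share of Ces1e was 3.01% in the knockout and 5.23% in the control, and that of Ces1g 11.5% and 6.94%. Ces1a had 6 reads in the knockout and 3 in the control, and Ces1h had 0 in both.

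Promoter sequences from RefSeq (GRCm38.p6, the assembly behind mm10) were aligned in pairs within each family. Each window runs from 250 bases before the start to 50 bases after it, in the direction of the gene, and was found for 41 of the 53 members. The windows of Ces1b (chr8:93079891-93080190, minus strand) and Ces1c (chr8:93131234-93131533, minus strand) are printed because these are the most similar pair within a family, at 85.7% identity. The ratios of the 2 genes were also close, but their FPKM in the knockout was 42.9 and 785. A link between the letters and the ratios was not tested. The median over 197 pairs of members of the same family was 58.7%. Alignments allowed gaps, and Aldh16a1 and Aldh1l1, on different chromosomes, reached 62%. No pairs from different families were aligned, so an identity near the median cannot be read as likeness. RefSeq lists a second Ces1b start, whose window (chr8:93079968-93080267) had 65.7% identity to that of Ces1c and is not printed. Capitals mark the 43 bases of each window that differ or are unmatched in the alignment.
Ces1b: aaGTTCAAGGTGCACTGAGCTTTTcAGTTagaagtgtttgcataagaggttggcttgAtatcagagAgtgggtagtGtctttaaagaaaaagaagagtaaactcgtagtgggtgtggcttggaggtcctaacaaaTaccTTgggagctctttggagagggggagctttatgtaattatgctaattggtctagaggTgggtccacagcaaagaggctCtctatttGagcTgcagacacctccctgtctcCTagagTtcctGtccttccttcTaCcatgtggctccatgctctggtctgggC
Ces1c: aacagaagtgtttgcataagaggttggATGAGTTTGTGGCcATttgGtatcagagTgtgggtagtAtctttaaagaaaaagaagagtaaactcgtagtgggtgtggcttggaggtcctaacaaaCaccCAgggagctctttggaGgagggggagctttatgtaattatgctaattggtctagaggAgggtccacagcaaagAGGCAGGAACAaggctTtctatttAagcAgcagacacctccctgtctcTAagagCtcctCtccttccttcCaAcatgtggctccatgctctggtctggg

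The windows of Ces1e (chr8:93229570-93229869, minus strand) and Ces1g (chr8:93337160-93337459, minus strand) are printed because these copies had the lowest and the highest Ces ratio. Their identity was 60.7%, near that median. Windows were aligned end to end from their annotated starts, so like stretches at different distances from the start need not be lined up. The letters ttatgtaag and taaactct, for example, occur in both windows but later in that of Ces1e. The 60.7% therefore cannot be read as a lack of likeness. Capitals mark matches to any of 5 motifs searched on both strands. These were TATAAA, the TATA box core, AGGTCA, the core that nuclear receptors bind, GCGTG, the core bound by the aryl hydrocarbon receptor, TGACNNNGC, the core of the antioxidant response element, and CCCTCCC, a C-rich stretch.
Ces1e: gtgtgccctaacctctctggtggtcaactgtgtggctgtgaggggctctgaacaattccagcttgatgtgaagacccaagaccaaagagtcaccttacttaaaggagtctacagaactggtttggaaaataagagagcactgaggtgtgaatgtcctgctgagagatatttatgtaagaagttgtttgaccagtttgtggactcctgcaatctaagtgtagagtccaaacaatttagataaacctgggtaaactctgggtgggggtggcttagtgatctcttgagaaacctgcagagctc
Ces1g: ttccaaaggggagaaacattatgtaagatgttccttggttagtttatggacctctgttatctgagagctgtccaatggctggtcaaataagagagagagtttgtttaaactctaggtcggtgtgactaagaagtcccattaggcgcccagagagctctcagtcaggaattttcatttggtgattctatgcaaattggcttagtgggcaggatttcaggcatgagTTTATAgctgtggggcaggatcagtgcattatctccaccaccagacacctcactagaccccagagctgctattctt

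Ces1g had a TATAAA match on the other strand beginning 26 bases before the start, and Ces1e had no match to any of the 5 motifs. Because the letters they share lie at different distances from the 2 starts, the windows need not cover the same stretch. Whether Ces1e holds such a match outside its window was not tested. TATAAA was present in 13.6% of all 32851 promoter windows and in 9 of the 45 windows of members. AGGTCA was in 16.3% of all windows and in 10 of the 45, GCGTG in 32.4% and 11, TGACNNNGC in 12.4% and 2, and CCCTCCC in 21.95% and 9. A match is a description of the letters, and an absence says only that these letters are not in the window.

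In the Ces2 run, whose human relative prefers esters with a bulky alcohol group, 5 of 7 genes were evaluated. Ces2a had 4515 reads in the knockout and 4570 in the control, a ratio of 1.02 (0.975 to 1.06), the Ces ratio nearest to 1. Ces2c was at 1.21 (1.12 to 1.31), from 1477 knockout and 1252 control reads, and Ces2e at 0.856 (0.805 to 0.911), from 1882 and 2261 reads. Ces2b, a weakly expressed member, had 46 reads in the knockout and 72 in the control, and its ratio of 0.657 had a wide interval (0.444 to 0.964). Ces2g was at 1.09 (0.969 to 1.22). Summed, the Ces2 genes stood at 1.005 (0.975 to 1.04).

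Ces3a and Ces3b, the other highly expressed liver esterases, were both slightly higher. Ces3a had 22889 reads and FPKM 716 in the knockout, against 21382 reads and FPKM 655 in the control, a ratio of 1.101 (1.08 to 1.12). Ces3b had 11360 reads and FPKM 364 in the knockout, against 10851 reads and FPKM 340.4 in the control, a ratio of 1.08 (1.05 to 1.11). Their sum was 1.09 times the control level (1.08 to 1.11), but after the trend with gene length was subtracted their log2 ratios were 0.03 and 0.01. Ces4a was at 50 knockout and 66 control reads, and Ces5a at 0 in both.

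Some of these counts depend on how reads from copies were assigned, and no source used here states it. Of all 50-base words in the transcripts of Ces3a, 25.5% also occur in Ces3b, and 32.7% of those of Ces2c occur in the pseudogene Ces2d-ps. Of those of Ces2a, 17.3% occur in other genes, and 16.3% in Gm7208. For Ces1c the share in other genes was 13.0% and for Ces1b 11.6%, mostly each other. For Ces1d, Ces1e and Ces1g it was 1.08%, 2.97% and 1.67%. Summing Ces1b and Ces1c gave 0.890 (0.875 to 0.906), close to the value of Ces1c alone. Ces1c gave 22203 of the 23229 summed reads in the knockout and 25690 of the 26837 in the control. The sum therefore had to lie near Ces1c and is no check on how reads were assigned.

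**Figure D3:**
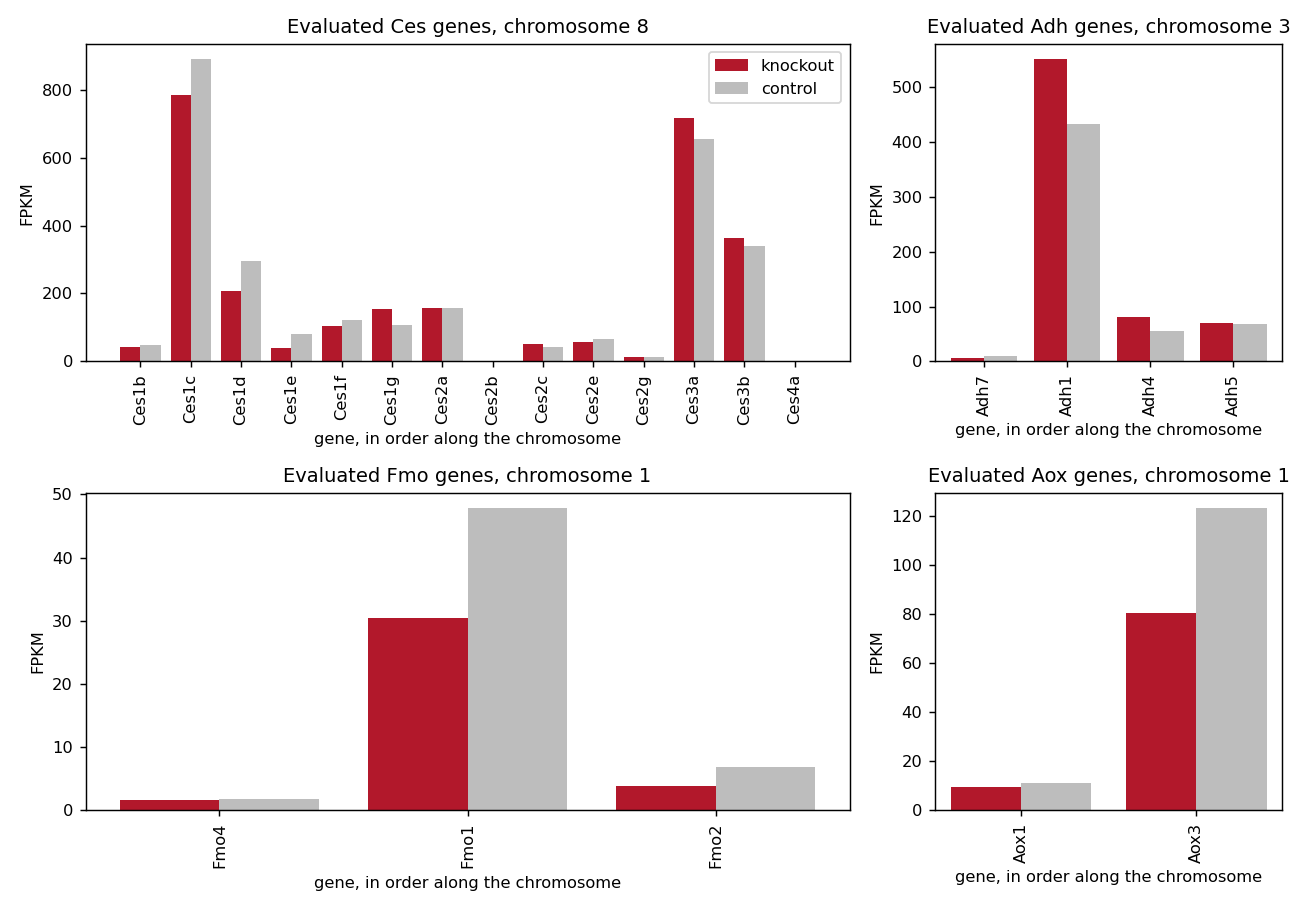
FPKM (vertical axis, from 0) of the evaluated members that lie in runs, in their order along the chromosome, with knockout bars in red to the left of control bars in grey. In the Ces panel Ces1d and Ces1e are lower in the knockout and Ces1g is higher, and in the Aox panel Aox3 stands at 80.5 in the knockout and 123 in the control.

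The alcohol dehydrogenases were higher in sum and split by gene. The 6 Adh genes lie in 1 plus-strand run on chromosome 3 (mm10, 138217760 to 138455499). They had 21289 reads in the knockout and 18051 in the control, a ratio of 1.21 (1.19 to 1.24), and most of it came from Adh1. Adh1 (ENSMUSG00000074207), the class I enzyme that oxidises most ethanol in liver, had 14987 reads and FPKM 551 in the knockout, against 12033 reads and FPKM 434 in the control, a ratio of 1.28 (1.25 to 1.31). Adh4 (ENSMUSG00000037797), the class II enzyme of liver, had 1443 reads and FPKM 81.7 in the knockout, against 992 reads and FPKM 55.0 in the control. Its ratio of 1.496 (1.38 to 1.62), a log2 ratio of 0.58, was the highest of the family and fell just short of 1.5.

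Adh5 and Adh7 did not share that direction. Adh5, the glutathione-dependent formaldehyde dehydrogenase found in nearly all cells, had 4563 reads and FPKM 69.3 in the knockout, against 4531 reads and FPKM 67.4 in the control, a ratio of 1.04 (0.994 to 1.08). Adh7 (ENSMUSG00000055301), the class IV enzyme known for retinol and ethanol oxidation in the stomach lining, had 289 reads and FPKM 6.27 in the knockout, against 492 reads and FPKM 10.5 in the control. The ratio was 0.604 (0.521 to 0.700). The stomach markers Gkn1, Gkn2 and Muc5ac had 0 reads in both libraries, and over the 8 stomach and gut markers the reads were 431 in the knockout and 535 in the control. Fabp2 gave 375 of these in the knockout and 531 in the control, while Vil1 had 25 and 1, Tff2 14 and 0, and Gkn3 13 and 1. Their part in the Adh7 difference was not tested. Adh6a had 4 reads in the knockout and 0 in the control, and Adh6b had 3 in each.

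The promoter windows of Adh4 (chr3:138415247-138415546, plus strand) and Adh7 (chr3:138217523-138217822, plus strand) are printed because these 2 genes mark the ends of the family's range. Capitals again mark the 5 motifs.
Adh4: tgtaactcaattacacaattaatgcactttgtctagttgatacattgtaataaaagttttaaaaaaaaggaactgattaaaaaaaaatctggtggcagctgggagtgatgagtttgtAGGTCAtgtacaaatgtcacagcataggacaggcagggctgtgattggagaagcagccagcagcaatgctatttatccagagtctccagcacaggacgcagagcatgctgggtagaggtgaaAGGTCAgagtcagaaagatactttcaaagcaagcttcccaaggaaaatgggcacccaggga
Adh7: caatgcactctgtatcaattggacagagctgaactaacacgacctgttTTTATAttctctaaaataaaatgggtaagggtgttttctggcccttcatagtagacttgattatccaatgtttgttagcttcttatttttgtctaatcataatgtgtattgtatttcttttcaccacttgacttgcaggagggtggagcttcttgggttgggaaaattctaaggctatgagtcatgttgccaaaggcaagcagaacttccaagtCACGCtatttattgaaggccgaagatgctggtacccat

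Adh4 had AGGTCA at 133 and at 11 bases before the start. Adh7 had a TATAAA match on the other strand beginning 202 bases before the start. It also had GCGTG on the other strand after the start. Their identity was 59.7%, near the median of 58.7% over pairs within families.

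Other steps of ethanol and aldehyde handling differed by less than 2-fold. Of 7 listed genes 6 were evaluated, none was 2-fold higher or lower, and the median log2 ratio was 0.09. Akr1a1, an aldehyde reductase, and Acss2, which activates acetate, were each at 0.34 on the log2 scale. Esd, which acts after Adh5 in formaldehyde removal, was at 0.21, and Adhfe1, an iron-containing alcohol dehydrogenase, was lowest at -0.22.

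The aldehyde dehydrogenases were the least different family. The 17 Aldh genes had 68072 reads in the knockout and 68212 in the control, a ratio of 1.03 (1.02 to 1.04). Of 12 evaluated members, 6 were above 0 and 6 below. The median log2 ratio was -0.0032, and 11 of the 12 lay between -0.23 and 0.22.

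The exception was Aldh1b1 (ENSMUSG00000035561, mm10 chromosome 4, 45799022 to 45804604, plus strand), a mitochondrial enzyme that oxidises acetaldehyde and other small aldehydes. It had 981 reads and FPKM 35.1 in the knockout, against 531 reads and FPKM 18.6 in the control. The ratio of 1.90 (1.71 to 2.12), a log2 ratio of 0.93, was the highest among the 36 evaluated members. None of its 50-base words occurs in the transcripts of another gene. Ductular markers were higher in the same library. Their summed FPKM was 68.8 in the knockout and 12.6 in the control, of which Spp1 gave 53.7 and 9.96. None of the 8 markers was at 0 in both libraries, and their part in the Aldh1b1 difference was not tested.

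Aldh2, the main mitochondrial acetaldehyde dehydrogenase, had the most reads of the family. It had 27034 reads and FPKM 433 in the knockout, against 23840 reads and FPKM 374 in the control, a ratio of 1.17 (1.15 to 1.19). Thus the main liver genes of both ethanol steps, Adh1 and Aldh2, were each modestly higher. Adh1 and Aldh2 each share exon positions with an annotated transcript on the opposite strand, over 136 and 130 bases.

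The folate enzyme Aldh1l1, which oxidises formyltetrahydrofolate in the cytosol, had 14118 reads and FPKM 257 in the knockout, against 16610 reads and FPKM 296 in the control. Its ratio was 0.874 (0.855 to 0.894), and its exons overlap those of other annotated genes over 604 bases. Aldh1l2, its mitochondrial relative, had 2 reads in the knockout and 1 in the control. Of 13 other folate enzymes 8 were evaluated, and none was 2-fold higher or lower, with a median log2 ratio of 0.02. Mthfd2, a mitochondrial folate enzyme, had 37 reads in the knockout and 12 in the control, a ratio of 3.17 (1.62 to 6.68), but stayed under FPKM 1 and is named here after its values were seen. Among those evaluated, the histidine-degrading enzyme Ftcd was lowest, with 3724 reads in the knockout and 5945 in the control (log2 ratio -0.63), and Tyms was highest, with 95 and 51 reads (0.93).

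Members that act in amino acid metabolism were near 1. Aldh4a1, which completes proline breakdown to glutamate, had 1797 reads in the knockout and 1839 in the control, a ratio of 1.005 (0.941 to 1.07), the smallest difference among the Aldh genes, although 30.03% of its 50-base words also occur in the overlapping gene Gm21969. Aldh6a1, of valine breakdown, was at 0.960 (0.924 to 0.998), and Aldh7a1, of lysine breakdown, at 0.906 (0.876 to 0.937), from 6420 knockout and 7291 control reads (FPKM 102 and 113). Aldh8a1, which acts in tryptophan breakdown, was at 1.13 (1.08 to 1.18), and Aldh9a1, of carnitine synthesis, at 0.926 (0.883 to 0.971). Aldh5a1, which oxidises succinic semialdehyde from the transmitter GABA, had 407 reads in the knockout and 491 in the control and was the lowest of the family at 0.853 (0.746 to 0.974). Exons of Aldh5a1, Aldh6a1 and Aldh7a1 overlap opposite-strand genes over 999, 1078 and 476 bases, and whether the counting used strand is not stated. Aldh18a1, which makes the precursor of proline, had 18 reads in the knockout and 8 in the control, too few to be evaluated.

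The 7 evaluated proline and glutamate enzymes beside these had a median log2 ratio of -0.12 and none was 2-fold higher or lower. Prodh2, a hydroxyproline dehydrogenase, was lowest at -0.46, and Gls2, the liver glutaminase, was at -0.17.

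Of the members that act on fatty aldehydes, Aldh3a2 carried nearly all reads. It had 4256 in the knockout and 4218 in the control, a ratio of 1.04 (0.994 to 1.08). Aldh3b1 had 26 and 27 reads, Aldh3a1 and Aldh3b3 2 reads each in the knockout and 0 in the control, and Aldh3b2 0 in both. Aldh16a1, a relative that lacks catalytic residues in mammals, was at 1.06 (0.956 to 1.18). Among the Aldh1a genes left out by name, Aldh1a1 had 13776 reads in the knockout and 13885 in the control, and Aldh1a7 4028 and 2978 (log2 ratio 0.48).

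All 4 evaluated flavin-containing monooxygenases had a log2 ratio below 0, as did 53.97% of all evaluated genes. For 3 of the 4 the counting interval lay below a ratio of 1, against 25.98% of all evaluated genes. The 7 Fmo genes had 25032 reads in the knockout and 31743 in the control, a ratio of 0.811 (0.798 to 0.825), and the median log2 ratio was -0.45. Fmo5 (ENSMUSG00000028088, mm10 chromosome 3), an enzyme that inserts oxygen next to carbonyl groups, made up 89.98% of the family's FPKM in the knockout and 87.2% in the control. It had 22352 reads and FPKM 323 in the knockout, against 27422 reads and FPKM 389 in the control, a ratio of 0.838 (0.824 to 0.853).

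Fmo1 and Fmo2, on chromosome 1, differed more. Fmo1 (ENSMUSG00000040181, mm10, 162829561 to 162866610, minus strand), which oxidises amine and sulfur drugs and makes taurine from hypotaurine, had 2339 reads and FPKM 30.5 in the knockout, against 3749 reads and FPKM 47.8 in the control. Its ratio was 0.642 (0.609 to 0.676). Fmo2 (ENSMUSG00000040170, 162874317 to 162898726), next to it and known mainly from lung, had 267 reads and FPKM 3.91 in the knockout, against 481 reads and FPKM 6.90 in the control, a ratio of 0.571 (0.490 to 0.664). Of the lung markers, Sftpc and Scgb1a1 had 0 reads in both libraries and Sftpb had 1 in the knockout. Fmo4 had 74 reads in the knockout and 83 in the control, and its interval held 1 (ratio 0.917, 0.661 to 1.27). Fmo6 and Fmo9 had 0 reads in both libraries.

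Aldehyde oxidase reads were lower, almost wholly through Aox3. The 4 Aox genes form a plus-strand run on chromosome 1 (mm10, 58029931 to 58380259) and had 7907 reads in the knockout and 11970 in the control, a ratio of 0.679 (0.660 to 0.699). Aox3 (ENSMUSG00000064294, 58113130 to 58200698), the main aldehyde oxidase of mouse liver, had 6893 reads and FPKM 80.5 in the knockout, against 10780 reads and FPKM 123 in the control. The ratio was 0.658 (0.638 to 0.678), and none of its 50-base words occurs in transcripts of other genes. Its neighbour Aox1 (ENSMUSG00000063558, 58029931 to 58106413) had 1013 reads and FPKM 9.57 in the knockout, against 1186 reads and FPKM 11.0 in the control, a ratio of 0.879 (0.807 to 0.956). The intervals of these neighbours, the only 2 evaluated Aox genes, do not overlap. They cover counting error only, with 1 library per genotype, so this gap is no further support for a difference. Aox2 had 1 read in the knockout and 2 in the control, and Aox4 0 and 2.

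Genes of the molybdenum cofactor, which aldehyde oxidases need, and other molybdenum enzymes did not reach 2-fold. All 9 found were evaluated, with a median log2 ratio of -0.13. Of these, 7 were below 0, as were 53.97% of all evaluated genes, and 2 were above it. Mocos, which adds the sulfur that aldehyde oxidases require, had 486 reads in the knockout and 582 in the control (log2 ratio -0.22). Mocs3 was lowest at -0.40, Mocs2 highest at 0.34, and Gphn, whose product completes the cofactor, was at -0.25.

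Enzymes with neighbouring functions and regulators of these families were set beside the members. None of 13 other ester and lipid hydrolases was 2-fold higher or lower, and their median log2 ratio was -0.01. Notum (0.49) and Pon2 (0.43) were the highest of these, and Mgll, monoacylglycerol lipase, was the lowest at -0.21. Of 15 reductases and other phase I enzymes, 1 was 2-fold higher, the carbonyl reductase gene Cbr3 with 36 knockout and 12 control reads, and none was 2-fold lower. Nqo1, a quinone reductase, had 86 reads in the knockout and 52 in the control (log2 ratio 0.76), and Maoa, monoamine oxidase A, had 52 and 94 (-0.81).

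Of 15 nuclear receptors and other regulators of xenobiotic and hepatocyte genes, 13 had a log2 ratio below 0, as did 53.97% of all evaluated genes, and the median was -0.25. Ppara, the receptor that drives fatty acid oxidation genes, was 2-fold lower, with 777 reads in the knockout and 1995 in the control (log2 ratio -1.32). Ahr, the aryl hydrocarbon receptor, had 409 reads in the knockout and 694 in the control (-0.72), and its partner Arnt 483 and 726 (-0.55).

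**Figure D4:**
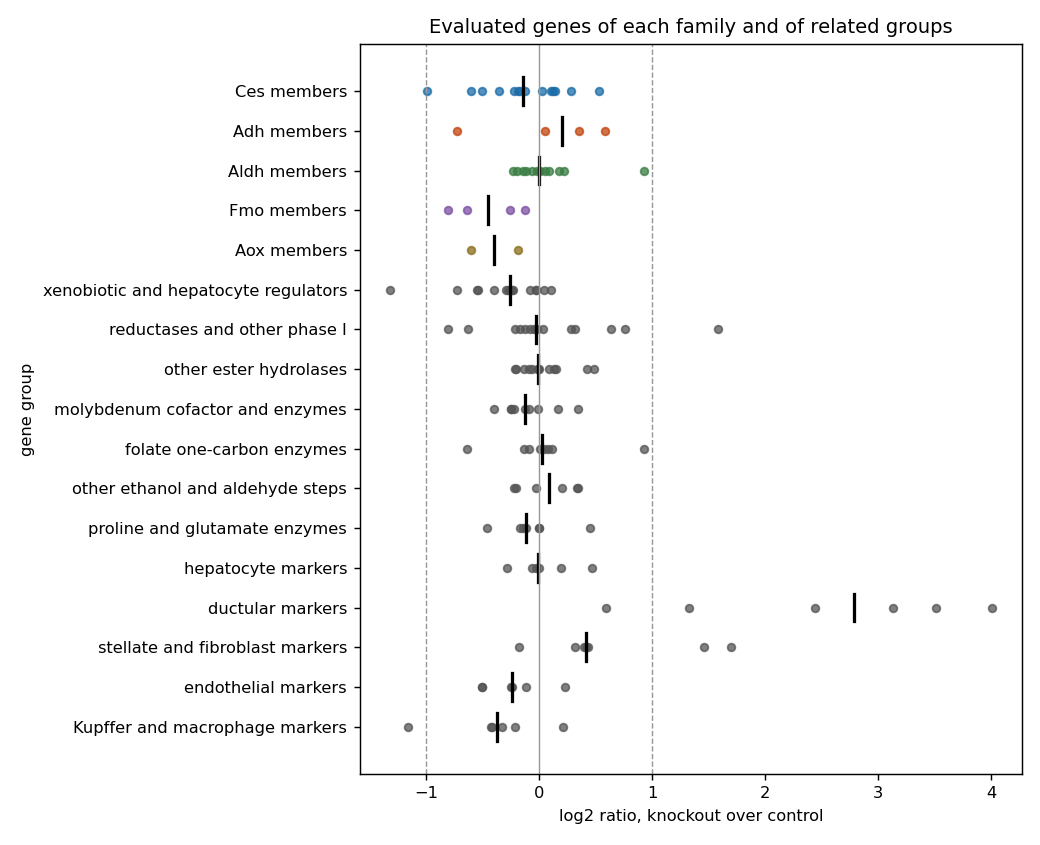
Log2 ratio of knockout over control (horizontal axis) for each evaluated gene of the 5 families, of related gene groups and of cell type markers. Points are genes, black bars are group medians, and dashed lines mark a 2-fold difference. The family points stay within the dashed lines, while 5 of 6 ductular and 2 of 7 stellate and fibroblast markers lie beyond the upper one.

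Across the 36 evaluated members, the log2 ratio had a Spearman correlation of 0.28 with mean FPKM and of -0.33 with gene length. The correlation with length was -0.27 over all 9563 evaluated genes. These are descriptions across genes, which share 2 libraries and are not replicates. Subtracting the length trend moved the family sums to log2 ratios of -0.13 for Ces, 0.10 for Aldh, -0.21 for Fmo and -0.43 for Aox, beside -0.05, 0.04, -0.30 and -0.56 before.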

How the data were processed

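RNA sequencing of mouse liver gave 1 library per genotype. Per the file headers, the authors deposited counts (whole numbers of reads) together with FPKM for every gene in each library. Bowtie2 2.4.2 and the mm10 genome are named in the submitters' processing notes. No source used here states the counting program, the strand setting or the treatment of reads with several matches, so overlapping genes and close copies are uncertain. The columns were matched to the samples by their WT and KO endings.

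The deposited FPKM equalled the count divided by gene length and library total, suitably scaled, for all genes (relative tolerance 1e-06). Library totals were multiplied by TMM factors (edgeR 4.0.16, R 4.3.3) from all 21936 genes. Log2 ratios used scaled counts plus 0.5, and ratios used scaled counts alone. Intervals are exact Clopper-Pearson 95% limits from the split of the reads, and cover counting error only: without molecular identifiers, reads may repeat a molecule. Computations used Python 3.11.15, numpy 2.4.6, pandas 2.3.3 and scipy 1.17.1, tested on simulated counts. Alternatives covered scaling (library totals, DESeq2 1.42.0), pseudocount, expression minimum, fold limit and gene length (running median over 401 genes). GENCODE coordinates matched for all 53 members. The 50-base word length is a choice, since no source used here gives the read length.

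Members and gene lists were chosen with earlier results of these data known. The rule named every member past the size rule, the 3 highest by FPKM and the highest, lowest and least different ratio of each family. Other members follow by role, with their reads or ratio. Ratios of genes outside the 5 families are mostly given as log2 values with no interval. From each other list at most 3 genes were to be named by size of difference, plus those a member works with directly. Some genes of these families and lists are not reported here.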

Additional observations from a re-analysis of the deposited data

How the results depend on the processing

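The count of members at least 2-fold higher was 0, also with the other scalings, with 1 added per library, with the length trend subtracted and with a minimum FPKM of 5. It was 6 with no minimum level and 1 with a 1.5-fold limit. The count at least 2-fold lower was 0, but 1 with median-of-ratios scaling, with library totals and with the length trend subtracted, in each case because Ces1e stands at the limit. It was 2 with no minimum level and 6 with a 1.5-fold limit. A 1.5-fold limit with the length trend subtracted, chosen after seeing the data, gave 1 higher and 4 lower. With the length trend subtracted, the summed log2 ratios became -0.13 (Ces), 0.10 (Aldh), -0.21 (Fmo) and -0.43 (Aox). Without the member with the most reads in each family they became 0.0020 (Ces), 0.11 (Adh), -0.072 (Aldh), -0.65 (Fmo) and -0.19 (Aox), so the sign for Ces and Aldh rests on Ces1c and on Aldh2. For the 23 members named by rule, the other scalings moved the log2 ratio by at most 0.011, and the length trend by -0.11 to 0.14. Depth limits the 17 members that were not evaluated. No paired analysis was possible because each genotype has 1 library, and for the same reason no replicate could be left out.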
